A study of Mus musculus with 6 samples.

Results

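Transcripts of 10 granulocyte granule genes were followed in the fetal liver of Rb null and wild type mouse embryos. The members were Mpo, Elane, Prtn3 and Ctsg of the primary granules, Ltf and Ngp of the secondary granules with the neutrophil cytosolic genes S100a8 and S100a9, and Prg2 and Epx of the eosinophil granules. They were taken as every probe set that the array's platform annotation assigns to 1 of these symbols alone, which gave 12 probe sets among 12422 probe sets that are no array control, and 10 of 8251 genes on the array. Each of Mpo and Prg2 had 2 probe sets and the other members had 1. The series holds livers of 6 embryos at embryonic day 12.5, all from crosses of 129sv mice that carry 1 mutant copy of Rb. Of these, 3 were homozygous Rb null and 3 wild type, none was treated, and total RNA of the dissected, disaggregated liver went onto 1 Affymetrix array per embryo. The labels name neither the Rb allele nor the litter of an embryo, so the p-values measure the spread between these embryos. The comparison asks how transcript levels in the liver differ when Rb, the retinoblastoma protein that restrains E2F factors, is absent from the whole embryo.

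Neutrophils and eosinophils store antimicrobial and digestive proteins in granules that are filled in order as the cells mature. Primary granules, with myeloperoxidase and serine proteases, are made first, at the promyelocyte stage, and secondary granules, with lactoferrin, are made later, at the myelocyte stage. The messages are made while the granules fill, so they mark immature stages more than circulating cells. The fetal liver is at this age mainly an erythroid organ, with myeloid precursors as a minority beside hepatoblasts, macrophages and megakaryocytes.

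Levels are MAS5 signals, Affymetrix's linear summary of a probe set, and cannot be compared between probe sets. Group values are mean ± SD with n = 3 embryos. Changes are differences of log2(signal + 50.02), the Rb null mean less the wild type mean, given ± SE as log2 fold changes, and understate the change of dim genes. Folds printed for rises include this added offset, and so are smaller than the ratio of the group means beside them. A probe set was tested where its mean over all arrays passed a signal of 150.1, and a change was called where the limma p-value, adjusted by Benjamini-Hochberg over 6793 tested probe sets, was below 0.05. The 2% trimmed means of the arrays lay between 500.22 and 500.25, and the median signal was 182 ± 5.04 in wild type and 200.1 ± 2.90 in Rb null arrays (two-sided exact permutation p = 0.1, which is the lowest value possible with 3 against 3). Scaling the arrays to equal medians moved the median log2 change of all tested genes from 0.02 to -0.10, and every change below moves down by about as much under that scaling. The Rb1 probe set of higher signal read 139, 142 and 127 in Rb null livers and 791, 754 and 706 in wild type livers, on the side that the genotype labels give. Where this probe set sits relative to the mutated part is unknown here.

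Ltf, both calprotectin genes, both eosinophil granule genes and Mpo were higher in Rb null livers. Thus 6 of the 9 members that passed the signal filter rose, none fell, and Elane, Prtn3 and Ngp were not past the threshold. Ctsg lay below the filter. Among all 5273 tested genes 13.1% rose and 9.5% fell. The median log2 fold change of the 9 tested members was 0.42, against 0.02 over all tested genes. In 6 of the 9 tested members all Rb null embryos lay above all wild type embryos, which held for 23.5% of all tested genes. These are the same 6 that were called, so their separation is no further evidence. Since whole livers were measured, more granulocytic cells and more of these messages per cell cannot be told apart. Nor can either be told from a smaller share of RNA from other cells. The summed signal of the erythroid markers was 27338 to 29870 in Rb null and 36875 to 39491 in wild type livers. Its part in these rises was not tested, nor was the cell type that made the messages.

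**Figure D1:**
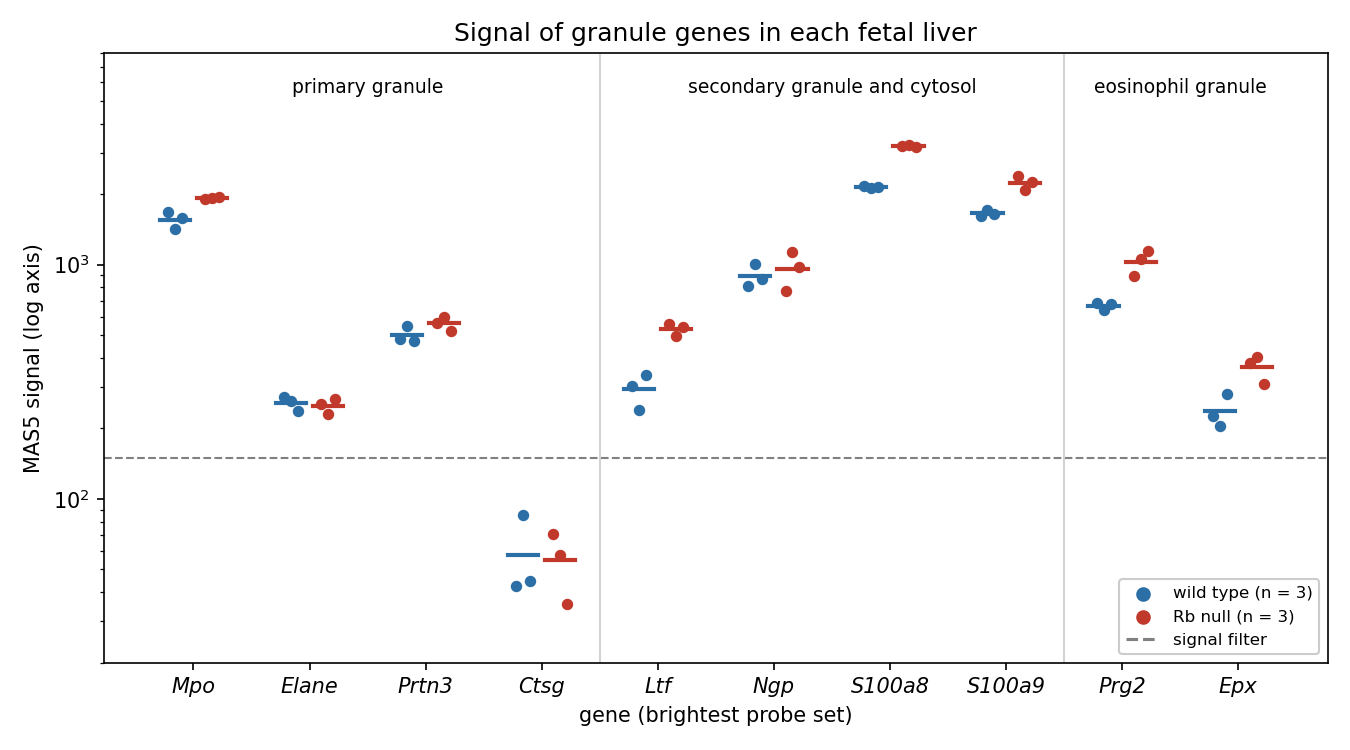
MAS5 signal (log axis) of the brightest probe set of each granule gene in every embryo, wild type in blue and Rb null in red; points are embryos, short bars are means of 3, and the dashed line is the signal filter of 150.1. The red points lie above the blue for Mpo, Ltf, S100a8, S100a9, Prg2 and Epx, the groups overlap for Elane, Prtn3 and Ngp, and Ctsg stays under the filter.

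Of the primary granule genes, Mpo encodes myeloperoxidase, which makes hypochlorous acid from hydrogen peroxide. Its brighter probe set read 1912, 1917 and 1941 in Rb null livers and 1673, 1413 and 1581 in wild type livers. The Rb null embryos lay close together and above the wild type embryos, which were more spread, with a coefficient of variation of 0.797% against 8.50%. Mpo rose 1.23-fold, from 1556 ± 132 to 1924 ± 15.3 (log2 fold change 0.30 ± 0.07, limma adjusted p = 0.018). The other Mpo probe set, dimmer and under the filter, read 134, 124 and 152 in Rb null livers and 154, 139 and 126 in wild type livers, and its groups overlapped. In the fit with no filter its change was -0.02, with a 95% interval from -0.33 to 0.28. The Mpo rise thus rests on 1 of 2 probe sets, and it did not pass with the mean of both (0.14, adjusted p = 0.24) or after median scaling (0.17, adjusted p = 0.16). Dropping Rb null embryo 1 or Rb null embryo 2 also ended the call, with an adjusted p of 0.054 and 0.055. The suffix of the brighter probe set marks probes that more than 1 transcript can share.

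Elane encodes neutrophil elastase, a serine protease of the primary granules. Its signals were 255, 229.7 and 266 in Rb null livers and 272, 262 and 237 in wild type livers. The groups overlapped throughout, at 250.2 ± 18.6 against 257 ± 18.4. The log2 fold change was -0.03 ± 0.10 (adjusted p = 0.85), and its 95% interval from -0.26 to 0.20 leaves room for a fold between 0.835 and 1.15. That interval does not reach the point estimates of the brighter Mpo probe set or of any other member that rose. It does overlap the 95% interval of that Mpo probe set, from 0.14 to 0.46, and Elane was not tested against Mpo. The change of Elane was near 0 from both sides, turning to 0.02 without Rb null embryo 2 and to 0.005 without wild type embryo 1.

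Prtn3 encodes proteinase 3, a close relative of elastase whose gene lies next to Elane on chromosome 10. It read 563, 599 and 521 in Rb null livers and 479.7, 547 and 473 in wild type livers. Wild type embryo 2 lay within the Rb null range, and the other wild type embryos lay below it. The change was 0.15 ± 0.09 (adjusted p = 0.25, 95% interval -0.05 to 0.35). Ctsg encodes cathepsin G, the remaining serine protease of these granules. Its signals of 71.0, 57.5 and 35.6 in Rb null livers and 42.3, 85.3 and 44.7 in wild type livers were all under the filter, so neither its presence nor a change was shown (-0.03 with no filter, 95% interval -0.49 to 0.43).

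The stretches before the start sites of Elane and Prtn3 are shown because these neighbours share a motif at a similar place and neither passed the test. They are the last 150 bases before the RefSeq start site, 5′ to 3′ on the gene's own strand (mouse GRCm38.p6, Elane at chr10:79886162-79886311 on the plus strand and Prtn3 at chr10:79879517-79879666 on the plus strand). Capitals mark matches to any of the motifs searched on both strands: TTGCNNAA for C/EBP, GAGGAA for PU.1, TAACNG for Myb, TGTGGT for RUNX and TTTNNCGC for E2F.
Elane: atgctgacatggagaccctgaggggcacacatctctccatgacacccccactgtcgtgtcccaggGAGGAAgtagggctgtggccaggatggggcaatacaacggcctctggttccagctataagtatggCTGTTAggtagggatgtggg
Prtn3: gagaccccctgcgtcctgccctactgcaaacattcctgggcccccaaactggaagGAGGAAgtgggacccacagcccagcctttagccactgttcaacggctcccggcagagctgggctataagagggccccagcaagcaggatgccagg
The GAGGAA match began 85 bases before the start of Elane and 95 bases before that of Prtn3. Elane also held a Myb match on the other strand, printed as CTGTTA, 20 bases before its start. PU.1, C/EBP, Myb and RUNX factors are known regulators of granulocyte genes, and a match is only a run of letters.

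Ltf encodes lactoferrin, the iron-binding protein that defines the secondary granule. It read 556, 497 and 539.5 in Rb null livers and 303, 239.9 and 337 in wild type livers. The lowest Rb null embryo lay well above the highest wild type embryo. The ratio of its mean signals was 1.81. With the offset Ltf rose 1.70-fold, from 293 ± 49.2 to 531 ± 30.5 (0.77 ± 0.12, adjusted p = 0.0035), the largest rise among the members. Of all tested genes 1.50% rose by more. Ltf stayed past the threshold under each of the 17 alternatives that could be computed for it, with changes from 0.62 to 0.86.

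Ngp encodes neutrophilic granule protein, a cathelicidin-related protein of the same granules. It read 769.6, 1137 and 979 in Rb null livers and 809.9, 1001 and 867 in wild type livers. Rb null embryo 1 was the lowest of all and Rb null embryo 2 the highest of all, so the wild type embryos lay between Rb null embryos. The change was 0.09 ± 0.14 (adjusted p = 0.68, 95% interval -0.22 to 0.40). It read 0.23 without Rb null embryo 1, -0.03 without Rb null embryo 2 and -0.04 after median scaling, none past the threshold.

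S100a8 and S100a9 encode the subunits of calprotectin, a calcium- and zinc-binding heterodimer that fills the cytosol of neutrophils and is not stored in granules. S100a8 read 3214, 3240 and 3185 in Rb null livers and 2157, 2113 and 2152 in wild type livers. Both groups were tight, with a coefficient of variation of 1.13% among wild type and 0.861% among Rb null livers, and lay far apart. S100a8 rose 1.49-fold, from 2140.3 ± 24.2 to 3213 ± 27.7 (0.57 ± 0.05, adjusted p = 2.5e-04). S100a9 read 2379, 2077 and 2260.2 in Rb null livers and 1619, 1707 and 1651 in wild type livers. Here too the groups stayed apart, with Rb null embryo 2 the lowest of its group. S100a9 rose 1.34-fold, from 1659 ± 44.6 to 2239 ± 152 (0.42 ± 0.06, adjusted p = 0.0034). Both rises passed the threshold under each of their 18 alternatives, with changes from 0.44 to 0.66 for S100a8 and from 0.29 to 0.47 for S100a9.

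The stretches before the start sites of the secondary granule and calprotectin genes are shown because 3 of these 4 genes rose and Ngp was not past the threshold. They are again the last 150 bases before the RefSeq start site in GRCm38.p6, Ltf at chr9:111019142-111019291 and Ngp at chr9:110419658-110419807 on the plus strand, S100a8 at chr3:90668921-90669070 on the plus strand and S100a9 at chr3:90695722-90695871 on the minus strand. Capitals mark matches to the same motifs.
Ltf: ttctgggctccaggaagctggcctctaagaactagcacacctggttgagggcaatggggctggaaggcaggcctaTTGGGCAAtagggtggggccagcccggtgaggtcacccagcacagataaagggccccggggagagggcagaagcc
Ngp: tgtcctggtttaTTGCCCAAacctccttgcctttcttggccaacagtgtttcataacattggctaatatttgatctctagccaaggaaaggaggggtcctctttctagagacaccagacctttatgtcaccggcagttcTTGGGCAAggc
S100a8: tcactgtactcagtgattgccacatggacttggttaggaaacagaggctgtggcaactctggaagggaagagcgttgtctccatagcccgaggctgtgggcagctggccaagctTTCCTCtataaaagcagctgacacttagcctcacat
S100a9: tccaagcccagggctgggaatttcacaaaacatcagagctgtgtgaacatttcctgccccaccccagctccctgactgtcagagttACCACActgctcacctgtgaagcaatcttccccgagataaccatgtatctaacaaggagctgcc
Ltf, which rose, and Ngp, which did not pass the test, both held the C/EBP letters, as TTGGGCAA in Ltf and as TTGCCCAA and TTGGGCAA in Ngp. S100a8 held the PU.1 letters on the other strand 36 bases before its start, and S100a9 the RUNX letters on the other strand 64 bases before its start.

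A promoter sequence was matched for 9 members, not for Prg2. In the 250 bases before the start, PU.1 letters were found in 6 of the 9 (Mpo, Elane, Prtn3, Ctsg, Ltf and S100a8), against 23.1% of 27025 RefSeq promoters. C/EBP letters were found in 3 (Ltf, Ngp and S100a9), against 9.55%. Myb letters were found in 2 (Mpo and Elane), against 19.8%, and RUNX letters in 2 (Ctsg and S100a9), against 14.2%. The E2F letters were in 0 of the 9, against 4.39% of promoters, which says only that these letters are not in this window. No match overlapped a match to another motif, and members with PU.1 letters included both genes that rose and genes that did not pass the test.

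Of the eosinophil granule genes, Prg2 encodes major basic protein, the core of the eosinophil granule. Its brighter probe set read 891, 1051 and 1142 in Rb null livers and 684, 642 and 676 in wild type livers. All Rb null embryos lay above the wild type embryos, with embryo 1 nearest to them. The ratio of the mean signals of this probe set was 1.54. With the offset Prg2 rose 1.50-fold, from 667 ± 22.1 to 1028 ± 127 (0.58 ± 0.09, adjusted p = 0.0040). The other Prg2 probe set, at 16.1, 13.3 and 23.8 in Rb null livers against 12.9, 25.2 and 17 in wild type livers, lay far under the filter, and averaging both took the change to 0.28 (adjusted p = 0.070). That was the 1 of 18 alternatives in which the Prg2 call was lost.

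Epx encodes eosinophil peroxidase, a relative of myeloperoxidase whose gene lies near Mpo on chromosome 11. It read 379, 403 and 309 in Rb null livers and 226, 205 and 279 in wild type livers. The groups did not overlap, but Rb null embryo 3 and wild type embryo 3 lay close to each other. The ratio of its mean signals was 1.54. With the offset Epx rose 1.45-fold, from 236 ± 38.2 to 364 ± 49.1 (0.53 ± 0.13, adjusted p = 0.025). Its call was lost in 9 of 17 alternatives, all with the change still upward. These were median scaling (0.41, adjusted p = 0.054), quantile normalization (adjusted p = 0.056), cyclic loess (adjusted p = 0.056), no filter (adjusted p = 0.056), the replicate block (adjusted p = 0.051), and 4 fits on 5 embryos. Dropping Rb null embryo 1 gave an adjusted p of 0.083 and dropping Rb null embryo 2 gave 0.088. Dropping wild type embryo 1 gave 0.068 and dropping wild type embryo 2 gave 0.064.

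**Figure D2:**
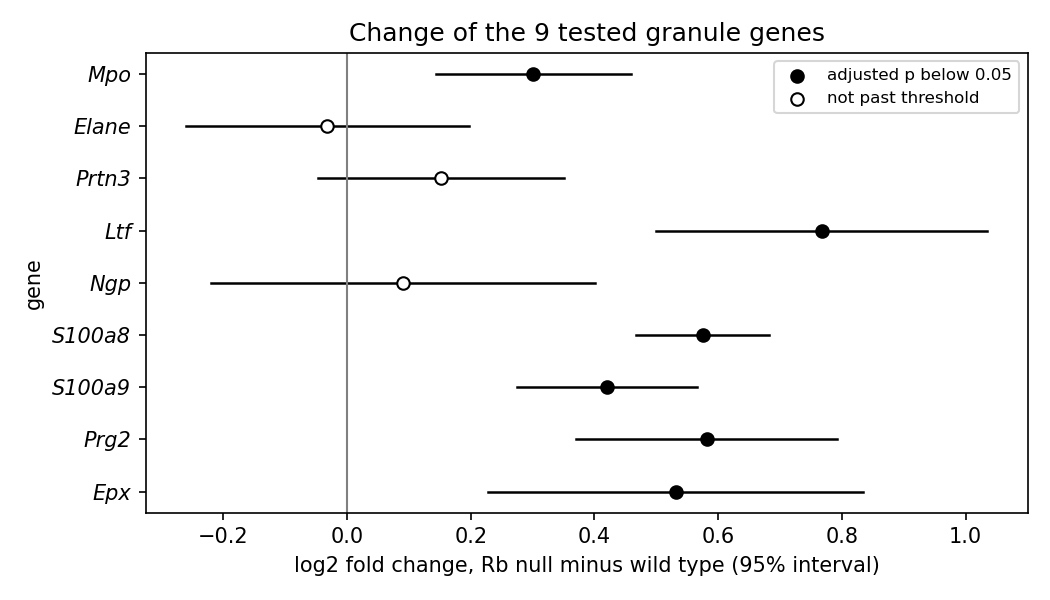
Log2 fold change, Rb null minus wild type, of the 9 tested granule genes with its 95% interval from limma; filled points passed an adjusted p below 0.05 and open points did not. The intervals of Elane, Prtn3 and Ngp span 0, and that of Ltf reaches from 0.50 to 1.04.

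Whether partner genes changed by different amounts was tested on the difference of their log2 values within each array, for 4 pairs chosen with the values known. The smallest p that 3 against 3 embryos allow is 0.1, so no pair could pass 0.05. The Ltf value minus the Ngp value was higher in Rb null livers, by 0.68 on the log2 scale, and the groups did not overlap (two-sided exact permutation p = 0.1, adjusted p = 0.2 over the 4 pairs). The S100a8 value minus the S100a9 value was higher by 0.16, at 0.51 ± 0.10 against 0.36 ± 0.05, again without overlap (exact permutation p = 0.1, adjusted p = 0.2). The Epx value minus the Mpo value was higher by 0.23 with overlap (exact permutation p = 0.2, adjusted p = 0.27). The Elane value minus the Prtn3 value fell by 0.18 with overlap (exact permutation p = 0.3, adjusted p = 0.3). Only the Epx and Mpo pair spans the primary and another class, and the classes themselves were not compared by a test.

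**Figure D3:**
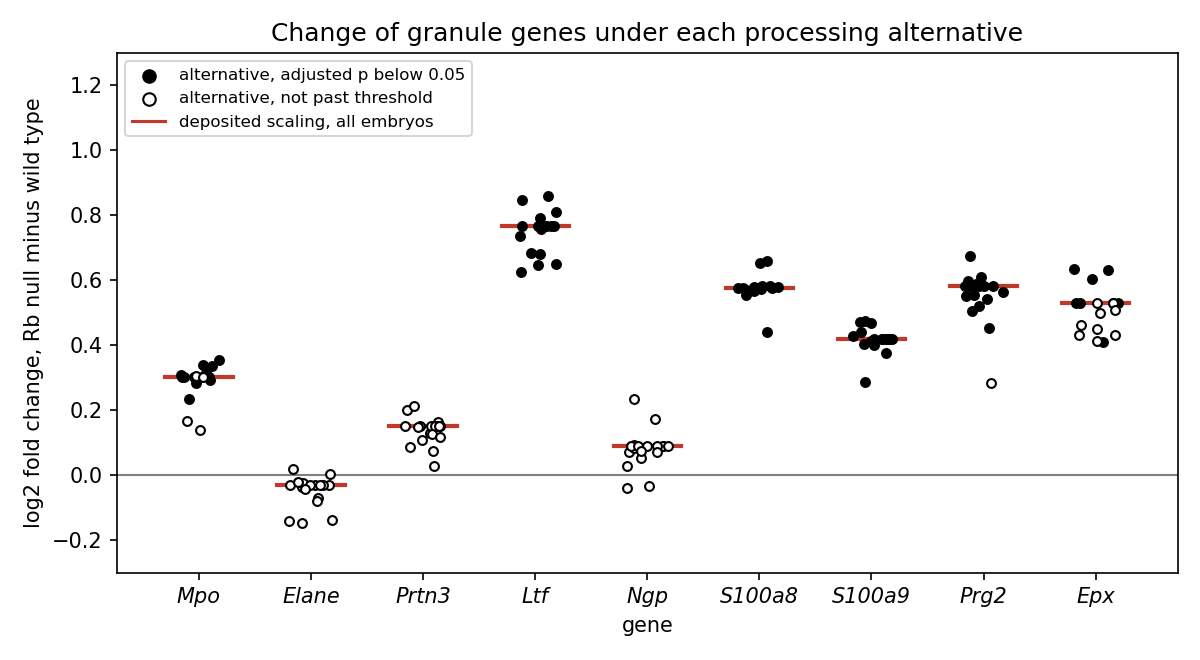
Log2 fold change of each tested granule gene, Rb null minus wild type, under every processing alternative; the red bar is the value with the deposited scaling and all embryos, filled points passed an adjusted p below 0.05 and open points did not. Ltf, S100a8 and S100a9 have only filled points, and Epx has 9 open ones.

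Of 18 other neutrophil granule and cytosol genes on the array, 10 were tested, 5 rose and none fell, with a median of 0.24. Pglyrp1, a peptidoglycan recognition protein of granules, rose from 165 ± 27.2 to 264 ± 20.4 (0.55 ± 0.12, adjusted p = 0.017), which did not pass after quantile normalization (adjusted p = 0.053), after cyclic loess (adjusted p = 0.0504) or when Rb null embryo 1 was dropped (adjusted p = 0.065). Cd63, a tetraspanin of granule and lysosome membranes in many cell types, rose from 1168 ± 40.9 to 1687 ± 120 (0.51 ± 0.07, adjusted p = 0.0019). Anxa1, annexin A1 of the neutrophil cytosol, rose by 0.50 ± 0.08 (adjusted p = 0.0054), or by 0.39 on averaging its probe sets (adjusted p = 0.037). Another tested Anxa1 probe set was not past the threshold (0.17 ± 0.12, adjusted p = 0.36). Lyz2, the lysozyme that macrophages also make, rose by 0.48 ± 0.10 (adjusted p = 0.012), or by 0.27 on averaging its probe sets (adjusted p = 0.089). Camp, the cathelicidin of secondary granules, was picked after its values were seen. It rose from 1767 ± 71.8 to 2098 ± 74.3 (0.24 ± 0.06, adjusted p = 0.019), which fell short of the threshold after median scaling (0.11, adjusted p = 0.27). Dropping Rb null embryo 1 (adjusted p = 0.070), or either of wild type embryos 1 and 2 (adjusted p = 0.063 and 0.055), had the same outcome. Lcn2, the lipocalin of the same granules, also picked after seeing its values, had probe sets that disagreed. The brighter, which has the suffix letter r, read 531 ± 68.8 against 581 ± 128 (-0.11 ± 0.15, adjusted p = 0.66). Probe sets with such letters were left out in an alternative. The other Lcn2 probe set, with no such letter, was under the filter and not tested. It read 207, 179 and 161 in Rb null livers and 79.1, 115 and 109 in wild type livers, without overlap.

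The other 8 genes of the neutrophil list lay under the filter. Among them were Mmp8, the neutrophil collagenase of secondary granules (28.7 ± 6.13 in Rb null, 18.4 ± 1.80 in wild type), and Mmp9, the gelatinase of tertiary granules (60.6 ± 25.0 and 28.9 ± 15.6). Of 16 receptor and adhesion genes on the array 9 lay under it, the surface genes Ly6g, Itgam, Cxcr2 and Fpr2 among them. Among eosinophil genes Il5ra, the receptor subunit for interleukin 5, read 3.50 ± 3.12 and 4.80 ± 2.46, and Ccr3 and Prg3 were also under the filter. The label of eosinophil granule genes therefore rests on Prg2 and Epx, with these other defining genes under the filter. The remaining gene of that list, Alox15, a lipoxygenase that reticulocytes also make, rose by 0.90 ± 0.13 (adjusted p = 0.0025). Alox15 read 136 ± 26.1 in wild type livers, under the filter, and 295 ± 13.6 in Rb null livers. It was thus tested only through its Rb null signal. The genes given here as under the filter and not tested were named after their values were seen.

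Of the NADPH oxidase genes, whose products supply the hydrogen peroxide that peroxidases use, Cyba rose from 2046 ± 28.2 to 2575 ± 77.7 (0.32 ± 0.05, adjusted p = 0.0037). Ncf4 and Rac2 were not past the threshold, and Cybb and Ncf1 lay under the filter. Of 7 tested granulocyte receptor and adhesion genes 2 rose and 1 fell (median 0.14). Ltb4r1, the leukotriene B4 receptor, rose by 0.80 ± 0.17 (adjusted p = 0.013, or 0.052 without Rb null embryo 1), and Csf2ra, a receptor subunit for GM-CSF, rose by 0.70 ± 0.13 (adjusted p = 0.0079). Csf2ra read 114 ± 20.1 in wild type livers, under the filter, and 215.5 ± 18.9 in Rb null livers. It was thus tested only through its Rb null signal. Cd24a, a surface protein that erythroblasts also carry, fell from 12774 ± 836 to 9559 ± 203 (-0.41 ± 0.06, adjusted p = 0.0027). Csf3r, the G-CSF receptor, was picked after its values were seen and read 471 ± 206 against 402 ± 44.0 (0.14 ± 0.23, adjusted p = 0.72).

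Among 11 tested transcription factor genes of granulocyte development 3 rose, 1 fell and 7 were not past the threshold (median 0.26). Ikzf1, which encodes Ikaros, rose from 332 ± 6.08 to 577 ± 27.1 (0.72 ± 0.08, adjusted p = 6.4e-04), or by 0.24 on averaging its probe sets (adjusted p = 0.20). Cebpb, a C/EBP factor of stress-driven granulopoiesis, rose by 0.45 ± 0.07 (adjusted p = 0.0037). Myb, a factor of immature blood cells, rose by 0.26 ± 0.07 (adjusted p = 0.031). Myb passed with Rb null embryo 1 dropped but with no other embryo dropped (adjusted p from 0.051 to 0.085). It also failed after median scaling (adjusted p = 0.32), with no filter (adjusted p = 0.059), with no intensity trend (adjusted p = 0.063) and on averaging its probe sets (adjusted p = 0.19). Gata1, a factor of erythroid, megakaryocyte and eosinophil cells, fell by 0.25 ± 0.06 (adjusted p = 0.025). Another tested Gata1 probe set pointed upward and was not past the threshold (0.18 ± 0.11, adjusted p = 0.30). Gata1 failed on averaging its probe sets (-0.04, adjusted p = 0.80). It also failed when Rb null embryos 2 or 3 were dropped (adjusted p of 0.063 and 0.061) and when wild type embryos 1 or 3 were dropped (adjusted p of 0.071 and 0.074). Cebpa, the factor that starts the granulocyte programme, read 2731 ± 109 against 2673 ± 144 (0.03 ± 0.06, adjusted p = 0.76) and Spi1, which encodes PU.1, read 356 ± 40.0 against 326 ± 16.4 (0.11 ± 0.10, adjusted p = 0.49). Both were picked after their values were seen.

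Markers of several other cell types changed too, upward for some types and downward for others. All 5 tested erythroid markers fell (Alas2, Klf1, Slc4a1, Epb42 and Hbb-b2; median -0.49), and their summed signal was 27338 to 29870 in Rb null against 36875 to 39491 in wild type livers. Of 9 tested macrophage markers Csf1r, Lyz2 and Vcam1 rose and none fell (median 0.16, summed signal of 11 genes 5762 to 6263 against 5163 to 5438). Lyz2 is also counted in the neutrophil list. The Csf1r call was lost after median scaling, quantile normalization and cyclic loess (adjusted p of 0.13, 0.063 and 0.058). It was also lost when Rb null embryo 2 or 3, or wild type embryo 2 or 3, was dropped (adjusted p from 0.052 to 0.083). The defining markers Adgre1 and Marco lay under the filter. Marco, not tested, read lower in Rb null livers, at 88.0 ± 19.96 against 165 ± 10.7 without overlap. Of 3 tested megakaryocyte markers 2 rose, Gp1bb and Vwf (median 0.91, summed signal of 4 genes 2187 to 2581 against 1388 to 1468, Pf4 under the filter). Of 5 tested progenitor markers 2 rose, Kit and Myb (median 0.26, summed signal of 7 genes 5420 to 5850.2 against 4273.5 to 4446). Myb, Gata2 and Runx1 are also in the list of transcription factor genes, so the rise of Myb is counted in both lists. Of 4 tested hepatoblast markers 2 fell (Alb and Apoa1; median -0.24, summed signal 23756 to 25587 against 27363 to 29980). After cyclic loess neither passed, with Alb at 0.049 (adjusted p = 0.45) and Apoa1 at -0.11 (adjusted p = 0.13). Apoa1 also failed with no filter (adjusted p = 0.051) and when Rb null embryo 1, Rb null embryo 2 or wild type embryo 3 was dropped (adjusted p of 0.071, 0.061 and 0.067). Of the fits on 5 embryos Alb passed only with wild type embryo 1 dropped, and failed with each other embryo dropped (adjusted p from 0.074 to 0.12). The part of these changes in the rises of the granule genes was not tested. Mast cells and basophils also make granule proteases. Of their 10 markers 8 lay under the filter, Mcpt4 at 5.47 ± 5.76 and 5.07 ± 3.43 and Tpsab1 at 6.07 ± 2.15 and 5.70 ± 1.25 among them. Of the tested ones Srgn, the serglycin core protein of granules in many blood cells, rose from 213 ± 2.70 to 286 ± 10.03 (0.35 ± 0.09, adjusted p = 0.026), a call that ended when any single embryo was dropped (adjusted p from 0.0507 to 0.082) and after median scaling (adjusted p = 0.093). Hdc, which makes histamine, was not past the threshold (0.13 ± 0.11, adjusted p = 0.42). Of the monocyte markers Cx3cr1 (0.08 ± 0.14, adjusted p = 0.73) was tested and Ccr2 was under the filter, and of the lymphoid markers only Cd79a was tested (0.04 ± 0.13, adjusted p = 0.86).

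**Figure D4:**
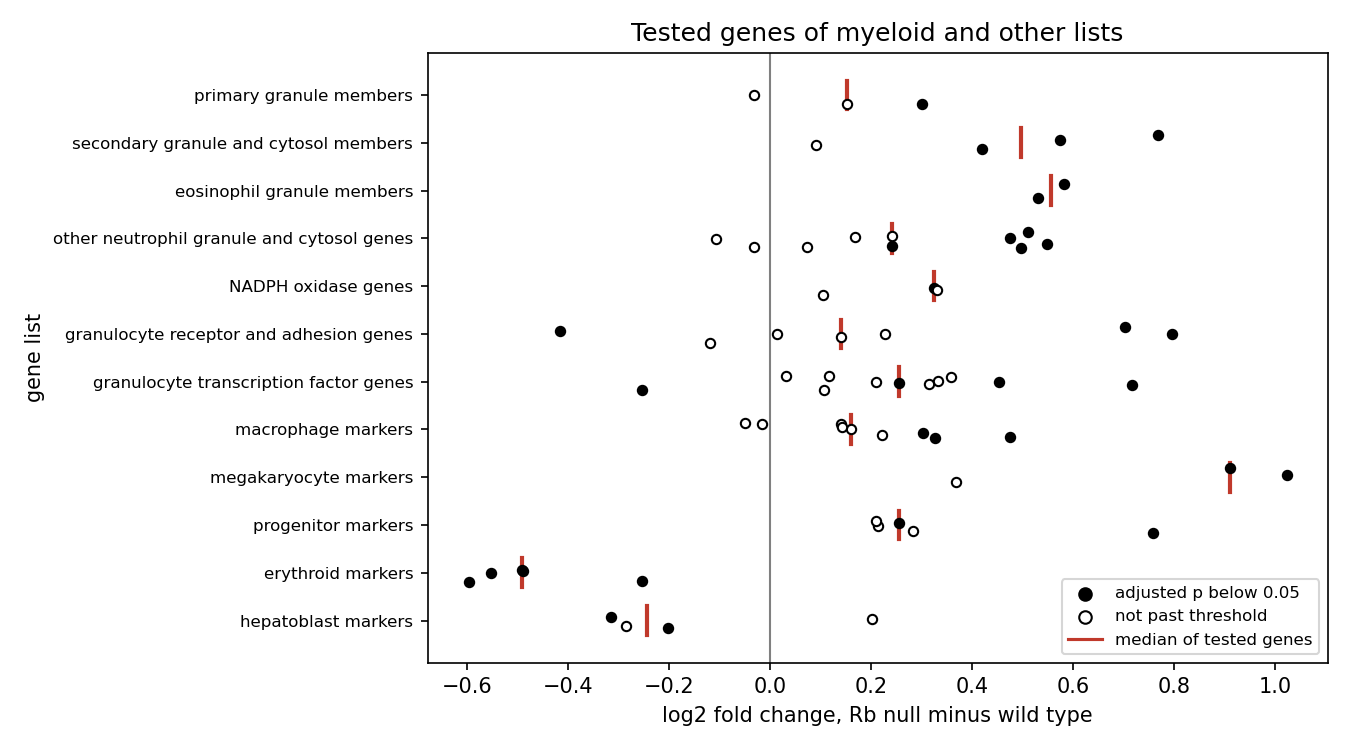
Log2 fold change (Rb null minus wild type) of each tested gene of the granule lists, of other granulocyte lists and of markers of other cell types; filled points passed an adjusted p below 0.05, open points did not, and the red bar is the median of the tested genes. Erythroid markers lie to the left of 0 with a median of -0.49, and the eosinophil granule genes to the right with a median of 0.56.

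The tested genes whose profile was most like each member were found by the root mean square difference of log2 values over the 6 arrays, each gene centred on its own mean. For S100a8 these were Smim14 (0.018) and Pdk1 (0.028), and for S100a9 Arap3 (0.029) and Myl1 (0.035). Ltf was closest to Cavin1 (0.046) and Kit (0.061), the receptor of blood progenitors and mast cells, which rose by 0.76 ± 0.11 (adjusted p = 0.0024). Prg2 was closest to Os9 (0.024) and Dynll2 (0.052), and Epx to Lsp1, a leukocyte actin-binding protein gene (0.0797), and Rcn2 (0.0801). Mpo was closest to Rras (0.027) and Coprs (0.033), Elane to Ap2a2 (0.032) and Atp6v0d1 (0.037), Prtn3 to Fcho1 (0.029) and Dock5 (0.031), and Ngp to Aamdc (0.065) and Golga5 (0.079). No member was among the 2 closest genes of another member.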

How the data were processed

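The deposited values are MAS5 signal intensities on a linear scale, computed by the authors per the submitters' processing notes. The version and scaling target are not given in the sources used here. The labelled cRNA was made from 6 ug of total RNA per liver, and the number of arrays limits the precision. Of 12488 probe sets, 66 array controls were left out; 10833 had 1 gene symbol, 396 several and 1193 none in the platform annotation. Promoters and gene order came from RefSeq tables of mouse GRCm38.p6, in which no matched platform symbol differed. Signals plus 50.02 (0.1 of the trimmed mean) were taken to log2, and probe sets with a mean above 150.1 (0.3 of it) were tested. The genotypes were set against each other with limma 3.58.1 under R 4.3.3 (lmFit, eBayes with an intensity trend), which was tested on simulated data. A gene was its probe set of highest mean signal. Lists were described by counts and medians.

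Members, lists and pairs were chosen with earlier results of these data known. Named beside the members were the called genes of largest change in each list, at most 4, (where none passed, those of smallest p) and, for each tested member, the 2 genes of most similar profile. Ncf4, Rac2, Hdc and Hbb-b2, and genes under the filter, were named outside this rule. Other names are said to be picked later. Alternatives were scalings, offsets, filters, variance models, the replicate block, the mean of probe sets, leaving out probe sets with suffix letters s, f, r, g or i, and leaving out each embryo.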

Additional observations from a re-analysis of the deposited data

How the results depend on the processing

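Across alternatives, between 4 and 6 granule members were called higher and none lower. Over all genes, 690 were higher and 501 lower. Median scaling gave 366 and 1093, so that the upward share of calls was 25.1% in place of 57.9%, and called 4 members (Ltf, S100a8, S100a9 and Prg2). The stricter filter of 500.2 left 428 higher genes among the 3119 tested, and Elane, Epx and Ltf had no value there. Leaving out 1 embryo gave 406 to 553 higher and 257 to 428 lower genes. The lowest counts of higher genes came without Rb null embryo 1 (417 higher, 291 lower) and Rb null embryo 2 (406 higher, 294 lower), each with 4 members called, and without wild type embryo 3 257 genes were lower. Without probe sets with suffix letters the brighter Mpo probe set dropped out and Mpo was not tested. Deviations of same-numbered embryos correlated at -0.06, 0.05 and 0.27, near 0 for numbers 1 and 2 and weakly positive for number 3. The same was not computed for embryos of different numbers. The numbers were not taken to pair embryos. With the replicate block 639 genes were higher and 488 lower, 5 members were called, and Epx had an adjusted p of 0.051. Of 799 values of 46 named genes outside the members, 80 lost a call, 1 gained one and 2 reversed. The reversals were those of the hepatoblast marker Alb, from -0.20 to 0.039 after quantile normalization and 0.049 after cyclic loess. The cause was not tested. Dim probe sets under 150.1 limit what can be said of Ctsg and of the other probe sets of Mpo and Prg2.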

Other observations

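The genes that flank the members on the chromosome, taken as the nearest protein-coding gene on either side with a probe set on the array, were read off in RefSeq gene order. This comparison was chosen after seeing the data and was not tested as a group. Around the Prtn3 and Elane pair on chromosome 10, neither of which passed the test, both flanking genes rose, as did 13.1% of all tested genes. Coding genes without a probe set lie between, 3 on the side of Palm and 4 on the side of Arid3a. Palm, which encodes the membrane protein paralemmin, rose from 418 ± 20.5 to 541 ± 21.5 (0.34 ± 0.08, limma adjusted p = 0.017). Arid3a, a DNA-binding factor gene, rose from 154 ± 13.4 to 223 ± 6.45 (0.42 ± 0.10, adjusted p = 0.025). On chromosome 11, Dynll2, a dynein light chain gene beyond Epx, rose from 413 ± 8.76 to 629.7 ± 47.0 (0.55 ± 0.08, adjusted p = 0.0027), or by 0.31 on averaging its probe sets (adjusted p = 0.11). Septin4, on the far side of Mpo, lay under the filter at 148 ± 22.3 against 113 ± 12.8.

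Beside S100a8 and S100a9 on chromosome 3, S100a6, a calcium-binding relative, read 113 ± 9.71 in Rb null livers and 103 ± 6.70 in wild type livers, under the filter. On the other side Lor, the skin protein loricrin, read 205 ± 27.9 and 204 ± 22.0 (adjusted p = 1.00). Next to Ltf on chromosome 9, Ccrl2 read 192 ± 16.6 and 225 ± 10.5 (-0.18 ± 0.10, adjusted p = 0.24). Next to Ngp, Ptpn23 read 249 ± 9.75 and 240.4 ± 14.6 (0.04 ± 0.09, adjusted p = 0.78). Beside Prg2 on chromosome 2, Timm10 read 142 ± 10.5 and 164 ± 11.7 (-0.16 ± 0.11, limma adjusted p = 0.35). The remaining neighbours lay under the filter: Prg3 beside Prg2, Mcpt8 and Gzmd beside Ctsg, Tdgf1 beside Ltf and Kif9 beside Ngp.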
